A study of Mus musculus with 45 samples.

Results

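The genes Ezh1, Ezh2, Eed, Suz12, Jarid2, Rnf2, Bmi1, Kdm6a and Kdm6b encode subunits of the Polycomb repressive complexes and the H3K27 demethylases, and were picked by name as 9 of the 53491 genes in the tables. All 9 were listed, and all had more than 10 counts in every library tested, so none was lost to the filter on low values. These counts are of T bases covered by reads, once for every T a read spans, so the minimum is below 10 reads. The cells were WT mouse primary cortical cells from embryos of 3 stages (E11.5, E14.5, E16.5), with 3 pools (A, B and C) per stage, each of 7 embryos at E11.5 and of 2 embryos later. The cells of a pool were plated in 5 wells, grown with 100 µM 4sU (4-thiouridine, a uridine analogue that enters new RNA) for 20 h, and then given 5 mM uridine. One well was lysed at each chase time of 0, 2, 4, 8 and 12 h, which gave 45 libraries in 15 groups of 3, all of them labelled. SLAM-seq reads a labelled T as a C, so each library gave a level for a gene and the share of its T positions that carried label. The 0 h levels are therefore those of cells kept in a medium for neural progenitors through the 20 h of labelling.

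Polycomb repressive complex 2 (PRC2) methylates H3K27 through EZH2 or its paralog EZH1, both of which need EED and SUZ12, and JARID2 helps to bring the complex to chromatin. Polycomb repressive complex 1 (PRC1) ubiquitinates histone H2A through RING1B, the product of Rnf2, together with a partner such as BMI1, and the demethylases KDM6A (UTX) and KDM6B (JMJD3) remove methyl groups from H3K27. In the developing cortex these proteins are known for the timing with which progenitors change the cell types they make.

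Library depth ranged from 15.9 to 43.9 M reads, or 228.7 to 629.1 M covered T positions. The cortical genes Emx1, Pax6, Neurod6 and Tbr1 summed to 501.8 to 533.6 cpm (reads per M reads) at 0 h of E11.5 and to at least 1127 cpm at the later stages. Over the 3 stages, 56 progenitor genes summed to 16340 to 17310, then 14970 to 15800, then 10040 to 10640 cpm at 0 h. For 57 neuron genes the sums were 14350 to 15960, then 27350 to 30360, then 39960 to 40910 cpm, and for 10 genes of cycling cells 2167 to 2304, then 1559 to 1777, then 695.2 to 786.3 cpm. None of these genes was at 0 in all libraries of a stage. For comparison, 6 erythroid genes summed to 1633 to 3658 cpm at E11.5 and to at most 61.72 cpm later. Other sums also shifted. For 4 meningeal genes they were 371.4 to 573.0 cpm at E11.5 and at most 20.97 cpm later. For 6 interneuron genes they were at most 54.45 cpm up to E14.5 and 268.1 to 276.9 cpm at E16.5. For 4 genes of oligodendrocyte precursors they were 106.1 to 139.3 cpm at E11.5 and at least 283.4 cpm later. The part of these cell types in the results below was not tested, and in bulk RNA fewer cells of a type cannot be told apart from less RNA per cell.

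Because the assay follows RNA decay, the 3′ UTRs of the 9 transcripts (longest coding isoform in GENCODE vM21, GRCm38) were searched on the transcribed strand for the 7-base matches to the seeds of 4 miRNAs and for the pentamer ATTTA, part of AU-rich elements. The miR-101a-3p match GTACTGT, which occurred in 11.6% of 10998 3′ UTRs, was found in 3 of the 9, at 2 places in Ezh2 and at 1 in Eed and in Kdm6b. The let-7a-5p match CTACCTC (9.81% of 3′ UTRs) occurred in Ezh2 only, the miR-137-3p match AGCAATA (10.3%) in Kdm6a only, and the miR-9-5p match ACCAAAG (13.4%) in none of the 9. ATTTA was found in all 9 and in 69.9% of 3′ UTRs. A match is a description of the letters, not a shown binding site. The mature miRNAs, from RefSeq (GRCm38.p6), are shown with the seed, bases 2 to 8, in capitals.
let-7a-5p: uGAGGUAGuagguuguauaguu
miR-101a-3p: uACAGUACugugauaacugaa
miR-137-3p: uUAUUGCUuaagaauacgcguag
The matches themselves follow in 30 bases of the transcribed strand, 5′ to 3′, with the seed match in capitals.
Ezh2, let-7a-5p, chr6:47530511-47530540, minus strand: catctaCTACCTCttccccttctctctgaa
Ezh2, miR-101a-3p, chr6:47530464-47530493, minus strand: aggaaccttgaGTACTGTgggcaatttaga
Ezh2, miR-101a-3p, chr6:47530409-47530438, minus strand: gaatttgcaaaGTACTGTaacagtaattta
Eed, miR-101a-3p, chr7:89954767-89954796, minus strand: ttacattctttGTACTGTcttcctgctcgg
Kdm6b, miR-101a-3p, chr11:69398924-69398953, minus strand: gagcgactcctGTACTGTaggggaagaagt
Kdm6a, miR-137-3p, chrX:18279062-18279091, plus strand: gtaaggtagttAGCAATAtttagtctttct

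The 3′ UTRs themselves differed widely. Those of Eed and Ezh2 were short, at 283 and 402 bases, against a median of 1129 bases. They held only 2 and 3 ATTTA. Per kb this was 7.07 and 7.46, more than in 97.3% and 97.7% of all 3′ UTRs, but in such short sequences a single pentamer moves the rate widely. Kdm6a had 6.51 ATTTA per kb in 1229 bases with a GC content of 29.2%, lower than in all but 1.96% of 3′ UTRs. At the other end, the 3′ UTRs of Ezh1 and Kdm6b had a GC content of 52.3% and 52.4%, and that of Ezh1 had 1.1 ATTTA per kb, below the median of 1.34. Bmi1 held 10 and Rnf2 held 9 ATTTA, in 2148 and 1911 bases.

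To compare genes with each other, the 0 h level was divided by the length of the merged exons (cpm per kb). Merged exons cover all isoforms, at 6678 bases for Ezh2, whose longest coding isoform has 2238 coding and 402 3′ UTR bases. For Rnf2 they are 4127 bases, against 1008 and 1911. The order of genes and the fold between 2 genes thus depend on this length, while changes between stages do not. Rnf2 stood highest at every stage, at 43.3 ± 1.01, 38.9 ± 2.32 and 37.8 ± 1.56 cpm per kb (mean ± SD, n = 3), and no pool of it overlapped those of the next gene. Ezh1 stood lowest, at 0.468 ± 0.0714, 1.42 ± 0.122 and 1.64 ± 0.0492 cpm per kb, with 5.44%, 16.8% and 20.2% of the genes with at least 1 cpm below it. At E11.5 the order after Rnf2 was Ezh2, Kdm6b, Suz12, Bmi1, Eed, Jarid2 and Kdm6a, and the pools overlapped between Ezh2 and Kdm6b and between Eed and Jarid2. At E14.5 the order was Kdm6b, Bmi1, Suz12, Ezh2, Eed, Kdm6a and Jarid2, with overlaps from Kdm6b through Ezh2, neighbour by neighbour, and between Kdm6a and Jarid2. At E16.5 the same order held for the first 5 of these, Jarid2 stood above Kdm6a, and no neighbours overlapped. Bmi1 thus went from the 5th place to the 3rd, and Ezh2 from the 2nd to the 5th.

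The first comparison asked how each gene's level at 0 h differed between stages. From E11.5 to E14.5, 2 of the 9 genes rose (Ezh1 and Bmi1), 4 fell (Ezh2, Eed, Jarid2 and Kdm6a) and 3 did not pass, where 48.6% of 18408 genes passed, 25.1% higher and 23.5% lower. From E14.5 to E16.5, 1 rose (Kdm6b), 4 fell (Ezh2, Eed, Suz12 and Kdm6a) and 4 did not pass, where 49.5% of genes passed, 24.1% higher and 25.4% lower. The median log2 fold change of the 9 was −0.14 and 0.00, against −0.01 and 0.00 over all genes tested. From E11.5 to E16.5, 3 rose (Ezh1, Bmi1 and Kdm6b), 5 fell and Rnf2 did not pass, where 64.4% of genes passed, 31.4% higher and 33.1% lower. Ezh1 was the only gene of the 9 that passed with a change beyond 2-fold, over the first interval and from E11.5 to E16.5. Beyond 2-fold, 8.14% of genes rose and 8.0% fell over the first interval, 7.19% and 5.92% over the second, and 14.7% and 14.6% from E11.5 to E16.5. The comparisons with E14.5 share the E14.5 libraries and are not independent of each other. Below, pools are said to overlap or not as a description, and the share of all genes whose 0 h levels do not overlap is not given.

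**Figure D1:**
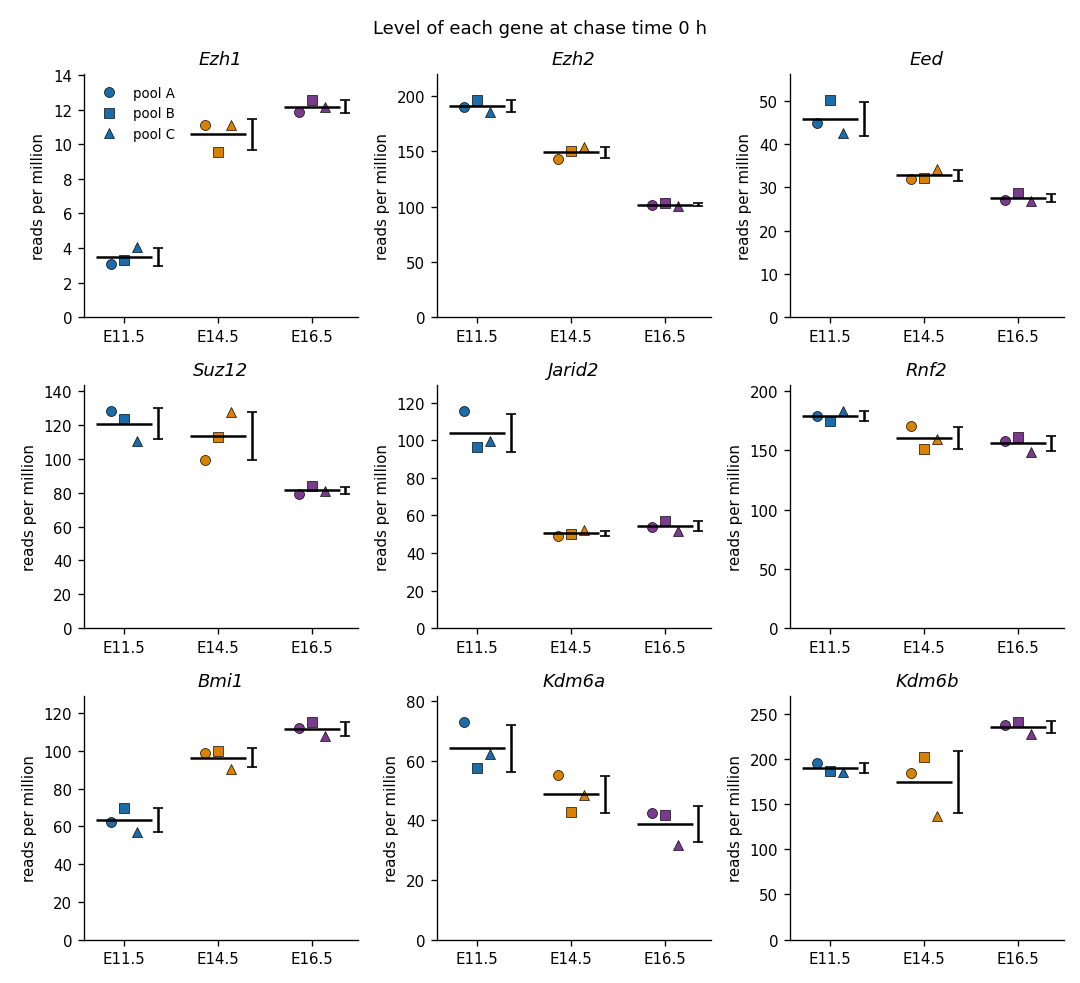
Level of each gene at 0 h in cpm (vertical axis, from 0, scaled per gene) for the 3 stages along the horizontal axis. Points are pools A (circles), B (squares) and C (triangles), the line is the mean and the bar beside it the SD of 3 pools. Ezh2 and Eed stepped down at both intervals, Ezh1 and Bmi1 rose above their E11.5 pools at E14.5, and pool C of E14.5 stood low for Kdm6b.

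The catalytic subunits of PRC2 went in opposite directions. Ezh1 (chr11:101191115-101226463, minus strand), whose product is the less active methyltransferase found also in cells that no longer divide, measured 3.05, 3.32 and 4.08 cpm in the pools of E11.5, 11.1, 9.53 and 11.1 cpm at E14.5, and 11.8, 12.6 and 12.1 cpm at E16.5. All later pools were above all E11.5 pools. Its log2 fold change was 1.70 ± 0.126 (SE; edgeR quasi-likelihood adjusted p = 2.03e-07) over the first interval, a 3.24-fold rise, and 0.28 ± 0.122 (adjusted p = 0.0775) over the second. The second value passed with DESeq2 (adjusted p = 0.0347), in the 12 h libraries (0.0204) and without pool C of E11.5 (0.0478).

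Ezh2 (chr6:47530139-47595341, minus strand), the methyltransferase that predominates in dividing cells, measured 190.4, 196.6 and 185.9 cpm at E11.5, 143.5, 150.1 and 153.7 cpm at E14.5, and 101.4, 103.4 and 100.8 cpm at E16.5. No pools overlapped between any stages. The log2 fold change was −0.31 ± 0.0547 (adjusted p = 0.000457) and then −0.52 ± 0.0548 (adjusted p = 6.03e-06), so that the level at E16.5 was 1.78-fold below that at E11.5. Both steps passed under all alternatives, and without any single pool they ranged from −0.33 to −0.28 and from −0.55 to −0.48. The genes of cycling cells fell at the same steps, with 7 and then 10 of 10 passing as lower and a median log2 fold change of −0.35 and −1.18. Whether that shift has a part in the fall of Ezh2 was not tested.

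Per kb of exon, Ezh2 was thus 69.5, 66.0 and 50.8 times the level of Ezh1 in the pools of E11.5. The ratio was 14.4, 17.6 and 15.4 at E14.5 and 9.55, 9.17 and 9.26 at E16.5. The pools of each stage were below all pools of the stage before, and the ratio fell 6.6-fold from E11.5 to E16.5. Each of the 3 stage differences had p = 0.1 in a two-sided exact permutation test, the smallest that 3 pools against 3 allow, and 0.12 after adjustment over 6 comparisons of paralogs.

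Of the core subunits, Eed (chr7:89954654-89980983, minus strand), which binds methylated H3K27 and stimulates the enzyme, measured 44.8, 50.2 and 42.5 cpm at E11.5, 31.9, 32.1 and 34.1 cpm at E14.5, and 27.0, 28.6 and 26.9 cpm at E16.5. The pools of the 3 stages did not overlap. It fell by 0.41 ± 0.0796 (adjusted p = 0.000908) and by 0.31 ± 0.0795 (adjusted p = 0.00589) on the log2 scale.

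Suz12 (chr11:79993106-80034123, plus strand), a scaffold of the complex, measured 128.1, 123.3 and 110.4 cpm at E11.5 and 99.1, 112.8 and 127.5 cpm at E14.5, and these pools overlapped. At E16.5 it measured 79.3, 83.7 and 80.9 cpm, below all earlier pools. Its log2 fold change was −0.04 ± 0.0783 (adjusted p = 0.727) for the first interval, and it fell by 0.48 ± 0.0785 (adjusted p = 0.000246) over the second.

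Jarid2 (chr13:44729474-44921643, plus strand), the accessory subunit, measured 115.5, 96.3 and 99.6 cpm at E11.5 and 49.3, 49.9 and 52.2 cpm at E14.5. It measured 54.1, 57.1 and 51.8 cpm at E16.5, which overlapped the E14.5 pools. It fell by 0.97 ± 0.0762 on the log2 scale (adjusted p = 3.45e-07), or 1.96-fold, over the first interval, and differed by 0.13 ± 0.0756 (adjusted p = 0.189) over the second.

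The other 9 PRC2 genes of a list fixed for this description showed 2 higher, 3 lower and 4 not passing from E11.5 to E14.5, and 1 higher, 7 lower and 1 not passing from E14.5 to E16.5. Their median log2 fold changes were −0.12 and −0.30, against −0.01 and 0.00 for all genes. Of all genes, 25.1% passed as higher and 23.5% as lower at the first step, and 24.1% and 25.4% at the second. Phf1, a Polycomb-like subunit, rose at both steps, by 0.66 ± 0.152 (adjusted p = 0.00295) and 0.74 ± 0.152 (adjusted p = 0.0013). Lcorl, whose product joins a class of PRC2, rose by 0.61 ± 0.0619 (adjusted p = 3.7e-06) and then fell by 0.80 ± 0.0621 (adjusted p = 5.71e-07). Among those lower, Rbbp4, a histone-binding subunit shared with other complexes, fell by 0.42 ± 0.0595 (adjusted p = 7.28e-05) over the second interval, and Aebp2 and Lcor fell by 0.35 and 0.36 over the first (adjusted p = 0.00354 and 0.0304).

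In PRC1, the E3 ligase gene Rnf2 (chr1:151458004-151500955, minus strand) measured 178.8, 174.8 and 183.2 cpm at E11.5, 170.4, 151.3 and 159.6 cpm at E14.5, and 158.3, 161.1 and 148.8 cpm at E16.5. The E11.5 pools were above the others, which overlapped each other. Its log2 fold changes, −0.14 ± 0.0676 (adjusted p = 0.104) and 0.00 ± 0.0675 (adjusted p = 0.973), did not pass. The first passed without pool A of E14.5 (adjusted p = 0.0282), in the 12 h libraries (0.0319) and with limma on log2(cpm + 1) (0.0432), and the second in the 12 h libraries (0.0156). From E11.5 to E16.5 it did not pass in the edgeR fit but did with limma (0.0116). It shares 158 exon bases, 3.83% of its exon length, with Trmt1l on the other strand, which measured 24.4 to 41.1 cpm, and whether reads were assigned by strand is not stated.

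Bmi1 (chr2:18677018-18686629, plus strand), whose product stimulates RING1B and is known for holding down the Cdkn2a locus in stem cells, measured 62.5, 69.9 and 57.3 cpm at E11.5, 98.9, 100.0 and 90.5 cpm at E14.5, and 112.3, 115.3 and 108.0 cpm at E16.5. The pools rose from stage to stage without overlap. Its log2 fold change was 0.71 ± 0.0778 (adjusted p = 7.48e-06), a 1.64-fold rise, and then 0.16 ± 0.0774 (adjusted p = 0.0989). The second value passed on recovered reads (adjusted p = 0.0113), with limma (0.0287) and without pool B of E11.5 (0.0403).

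Of 30 other PRC1 genes, 29 were tested, with 9 higher, 12 lower and 8 not passing from E11.5 to E14.5, and 13 higher, 4 lower and 12 not passing from E14.5 to E16.5. The median log2 fold changes were −0.04 and 0.18. Over all genes, 25.1% passed as higher and 23.5% as lower in the first interval, and 24.1% and 25.4% in the second. Auts2, which turns a PRC1 variant towards activation in neurons, rose by 1.05 ± 0.0784 (adjusted p = 2.18e-07) over the first interval, and Cbx8, a chromodomain subunit, by 0.64 ± 0.0877 (adjusted p = 5.38e-05). E2f6, a DNA-binding partner of a variant PRC1, fell by 1.25 ± 0.0773 (adjusted p = 3.95e-08), from 83.8 to 96.6 cpm at E11.5 to 34.0 to 38.2 cpm at E14.5. Scml4 fell by 1.46 (adjusted p = 9.47e-05) and then rose by 2.39 (adjusted p = 2.01e-06), at levels of 0.425 to 2.67 cpm. Over the second interval Fbrs rose by 1.04 (adjusted p = 0.000121), while Pcgf5, a BMI1 relative, fell by 1.03 (adjusted p = 1.62e-06) and Scml2 by 0.64 (adjusted p = 0.0151).

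At 0 h the demethylase genes also went in opposite directions from E11.5 to E16.5. Kdm6b (chr11:69398508-69413675, minus strand), an inducible demethylase, measured 196.4, 187.4 and 186.3 cpm at E11.5, 185.0, 203.1 and 136.6 cpm at E14.5, and 238.4, 241.2 and 228.7 cpm at E16.5. All E16.5 pools were above all others, the E14.5 pools spanned those of E11.5, and pool C of E14.5 stood lowest. The log2 fold change was −0.08 ± 0.113 (adjusted p = 0.576) and then 0.45 ± 0.113 (adjusted p = 0.00531). Without pool C of E14.5 the rise was 0.29 (adjusted p = 0.00283). From E11.5 to E16.5 it rose by 0.36 ± 0.113 (adjusted p = 0.0127), but the 12 h libraries gave 0.07 (adjusted p = 0.638).

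Kdm6a (chrX:18162575-18279936, plus strand), an X-linked demethylase that escapes X inactivation, measured 72.9, 57.7 and 62.1 cpm at E11.5, 55.2, 42.8 and 48.5 cpm at E14.5, and 42.5, 41.8 and 31.7 cpm at E16.5. The stages did not overlap, but the highest E16.5 pool was within 1 cpm of the lowest E14.5 pool. It fell by 0.34 ± 0.125 (adjusted p = 0.0377) and by 0.33 ± 0.125 (adjusted p = 0.0444). Each of these calls was lost on leaving out single pools. The first was lost without pool A of E11.5 (−0.25, adjusted p = 0.161) and without pool B (−0.25, 0.152) or pool C (−0.33, 0.0889) of E14.5. The second was lost with recovered reads (−0.30, 0.0564), with DESeq2 size factors (−0.30, 0.0609) and without pool A (−0.22, 0.188) or pool C (−0.34, 0.079) of E14.5 and without pool A (−0.36, 0.0636) or pool C (−0.21, 0.185) of E16.5. The fall from E11.5 to E16.5, 0.67 ± 0.125 (adjusted p = 0.000397), passed without any single pool, at −0.73 to −0.55.

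Pools also differed in the sex of their embryos, and Kdm6a escapes X inactivation. The part of sex in its level was not tested. In pool A of E14.5 Xist, the RNA of the inactive X, measured 59.6 cpm at 0 h and the Y-linked Ddx3y 0.0212 cpm. Pool B of E14.5 and pool C of E16.5 had Xist at 0 and Ddx3y at 57.1 and 41.7 cpm, and the other 6 pools had both genes. Averaged over 5 wells, Kdm6a measured 47.8 cpm in pool A, 38.6 cpm in pool B and 42.5 cpm in pool C of E14.5. At E16.5 it measured 38.2, 36.3 and 30.4 cpm in pools A, B and C. In these means the pool without Xist was lowest at each stage. In the 12 h wells of E14.5, however, pool C (36.7 cpm) was below pool B (38.5 cpm). Without the 3 pools of one sex the fall of Kdm6a was −0.36 (adjusted p = 0.0485) and then −0.16 (adjusted p = 0.368), with 1 pool left at E14.5, assumed to vary like the others. In the same setting Eed no longer passed, at −0.34 (adjusted p = 0.0554) and −0.32 (adjusted p = 0.0749). It gave Kdm6b −0.46 (adjusted p = 0.00305) and then 0.87 (adjusted p = 0.000208), since the pool left at E14.5 was C. Uty, the Y-linked relative of Kdm6a, measured 20.7 cpm in pool B of E14.5 and 12.4 cpm in pool C of E16.5, and was not tested, being near 0 in pool A of E14.5.

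**Figure D2:**
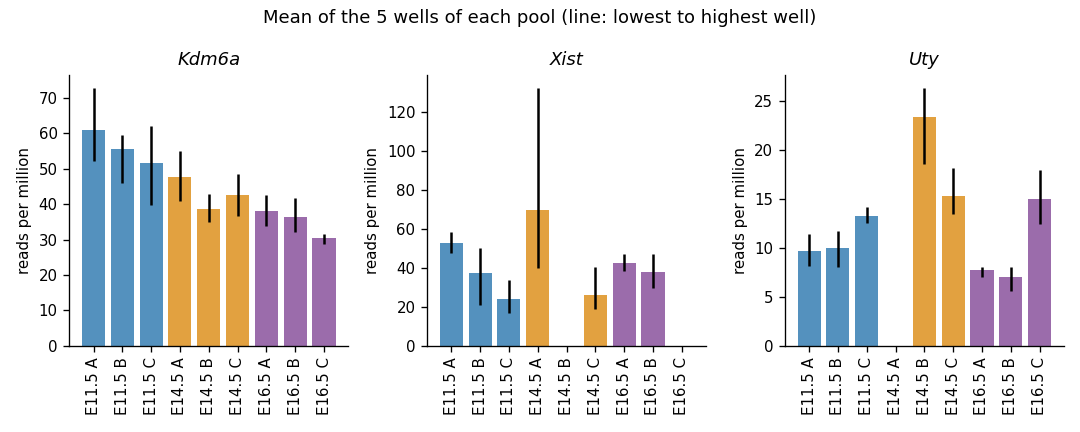
Kdm6a, Xist and Uty in cpm (vertical axes, from 0) in each of the 9 pools. Bars are means of the 5 wells of a pool and lines run from the lowest to the highest well. Pool B of E14.5 and pool C of E16.5 had almost no Xist, and their Kdm6a bars, 38.6 and 30.4 cpm, are the lowest of their stages.

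Per kb of exon, the level of Kdm6a as a share of that of Kdm6b was 0.308, 0.255 and 0.277 in the pools of E11.5. The E14.5 pools had 0.247, 0.175 and 0.295, and the E16.5 pools 0.148, 0.144 and 0.115. The E14.5 and E11.5 pools overlapped, and all E16.5 pools were below both. The two-sided exact permutation p was 0.4 for E14.5 against E11.5 and 0.1, the smallest possible, for both comparisons with E16.5, or 0.4 and 0.12 after adjustment.

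KDM6A works within the MLL3/MLL4 complex. Of all genes, 25.1% and then 24.1% passed as higher over the successive intervals, and 23.5% and 25.4% as lower. For the MLL3/MLL4 complex and Uty, 8 of 10 listed genes were tested. Of these 1 rose (Kmt2c, a methyltransferase of H3K4, by 0.57, adjusted p = 0.00338), 1 fell (Paxip1, by 0.55, adjusted p = 0.000104) and 6 did not pass from E11.5 to E14.5. From E14.5 to E16.5 there were 2 higher (Kmt2d by 0.54, adjusted p = 0.00314, and Ncoa6 by 0.21, adjusted p = 0.0186), 2 lower (Dpy30 by 0.40, adjusted p = 0.000311, and Wdr5 by 0.28, adjusted p = 0.00319) and 4 not passing. The complex that removes ubiquitin from H2A, opposite to PRC1, had 1 of 4 genes higher at each step (25.1% and 24.1% of genes were). This was Asxl3, which rose by 0.70 ± 0.0826 (adjusted p = 1.43e-05) and 0.64 ± 0.0824 (adjusted p = 3.48e-05), from 34.8 to 43.5 cpm at E11.5 to 93.6 to 104.1 cpm at E16.5.

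A list of genes known as Polycomb targets held 39 Hox genes, which pattern the body axis. Of these, 28 (71.8%) were listed at 0 in all 9 libraries of 0 h, against 42.5% of all 53491 genes, and the highest level of any was 0.107 cpm (Hoxb13). Of the 4 other listed targets, Fezf2, a deep-layer neuron factor, rose by 0.62 ± 0.0951 (adjusted p = 0.000144) over the first interval. Neurog1, a proneural factor, measured 1.99 to 4.14 cpm at E14.5 and 0.0761 to 0.261 cpm at E16.5, which passed as lower (adjusted p = 1.42e-05) at too few reads for a fold to be given. Cdkn2b, a cell cycle inhibitor, measured 3.38 to 11.0 cpm and then 1.21 to 3.69 cpm, which overlapped, and fell by 1.71 ± 0.453 (adjusted p = 0.00725). Cdkn2a, the remaining target, measured 0.692 to 2.45 cpm at E11.5, 0.297 to 1.09 cpm at E14.5 and 0.119 to 0.561 cpm at E16.5. Successive stages overlapped at these low levels.

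The genes closest in pattern to each of the 9 were sought among 9948 genes, by Pearson's r of log2(cpm + 1) over the 15 means of stage and chase time, which share their libraries and rest largely on stage. The closest were Mbtps2 to Ezh1 (0.996), Ift74 to Ezh2 (0.993), Ppp4r3a to Eed (0.989), Cbx1 to Suz12 (0.984) and Arvcf to Jarid2 (0.984). They were Akap11 to Bmi1 (0.993), Ankrd28 to Kdm6a (0.986), Gga3 to Kdm6b (0.946) and Med16 to Rnf2 (0.928). Of the 9 genes themselves, Ezh2 was among the 3 closest to Suz12 (0.984).

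The next comparison asked whether levels moved while the label was chased. Against 0 h, 12 h of chase at E11.5 had 3 of the 9 genes passing, where 23.0% of 17904 genes passed. Jarid2, at 115.5, 96.3 and 99.6 cpm at 0 h, measured 83.9, 72.3 and 71.3 cpm at 12 h. All its 12 h wells were below its 0 h wells, and it fell by 0.29 ± 0.0961 (adjusted p = 0.0406). Kdm6a, at 52.3, 46.1 and 39.9 cpm at 12 h, was below its 0 h wells and fell by 0.29 ± 0.0952 (adjusted p = 0.0361). Kdm6b, at 203.8, 196.9 and 176.2 cpm, overlapped its 0 h wells in cpm and rose by 0.20 ± 0.0576 (adjusted p = 0.0222) after normalization.

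At the same times Gm42418, a transcript that carries ribosomal RNA sequence, measured 3861 to 9482 cpm at 0 h and 29690 to 67620 cpm at 12 h of E11.5. Its part in the difference between cpm and the normalized values was not tested. Leaving Gm42418, Lars2 and Gm26917 out of the fit changed none of the 3 calls. All 3 were lost without pool A (Jarid2 −0.26, adjusted p = 0.159; Kdm6a −0.26, 0.158; Kdm6b 0.22, 0.144) and without pool B (−0.28, 0.243; −0.34, 0.145; 0.18, 0.192). With the pool as a block, since wells of a pool came from the same embryos, Suz12 also passed, at 0.16 (adjusted p = 0.0329), where 32.4% of genes did.

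At 12 h of E14.5 none of the 9 passed in the edgeR fit, where 7.64% of genes passed as higher and 7.41% as lower, and Kdm6a had an unadjusted p of 0.0225, where 29.0% of genes had one under 0.05. With the pool as a block, Kdm6a fell by 0.31 ± 0.0741 (adjusted p = 0.00452), where 27.7% of genes passed. Its wells measured 55.2, 42.8 and 48.5 cpm at 0 h and 40.8, 38.5 and 36.7 cpm at 12 h, lower in all 3 pools.

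At 12 h of E16.5, 2 of 9 passed (26.2% of genes did), Eed at 0.18 ± 0.0654 (adjusted p = 0.0496) and Suz12 at 0.14 ± 0.0469 (adjusted p = 0.0417). Eed went from 27.0, 28.6 and 26.9 cpm to 30.1, 30.4 and 28.8 cpm, with no overlap. The block added Kdm6a, at −0.23 ± 0.0661 (adjusted p = 0.00833), where 37.0% of genes passed. The calls of Eed and Suz12 were lost with recovered reads (0.12 and 0.09, each with adjusted p = 0.167), with no filter on low counts (adjusted p = 0.0571 and 0.0782) and without any single pool.

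After 2 h of chase, none of the 9 passed at E11.5 or at E14.5 in the edgeR fit, where 1.33% and 1.38% of genes did, and 3 (Eed, Rnf2 and Kdm6b) and 5 (Ezh1, Ezh2, Eed, Suz12 and Jarid2) had an unadjusted p under 0.05, as did 11.8% and 13.6% of genes. With the pool as a block 3 passed at E14.5, where 7.69% of genes did. Ezh1 fell by 0.36 (adjusted p = 0.0258), Ezh2 by 0.22 (adjusted p = 0.0328) and Suz12 by 0.23 (adjusted p = 0.0253). Gm42418 stood at 14850, 20510 and 2351 cpm in these wells of pools A, B and C, and its part in the 3 calls was not tested. At E16.5, 4 passed, where 5.8% of genes did. Jarid2 fell by 0.35 ± 0.0837 (adjusted p = 0.0221), from 54.1, 57.1 and 51.8 cpm to 44.5, 46.8 and 35.7 cpm, and Ezh1 by 0.23 ± 0.0623 (adjusted p = 0.0409). Eed rose by 0.28 ± 0.0653 (adjusted p = 0.0192) and Rnf2 by 0.20 ± 0.0443 (adjusted p = 0.0159). None of these 4 calls held on leaving out any single pool, and that of Ezh1 was also lost with recovered reads (adjusted p = 0.0589).

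Differences of the 12 h change between stages were tested directly. None of the 9 passed in the edgeR fit of all 45 libraries, where 9.61% of 16559 genes passed, and Rnf2 alone had an unadjusted p under 0.05 over the 3 stages (0.0381), as did 22.5% of genes. For none of the 9 was the 12 h change shown to differ between stages.

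**Figure D3:**
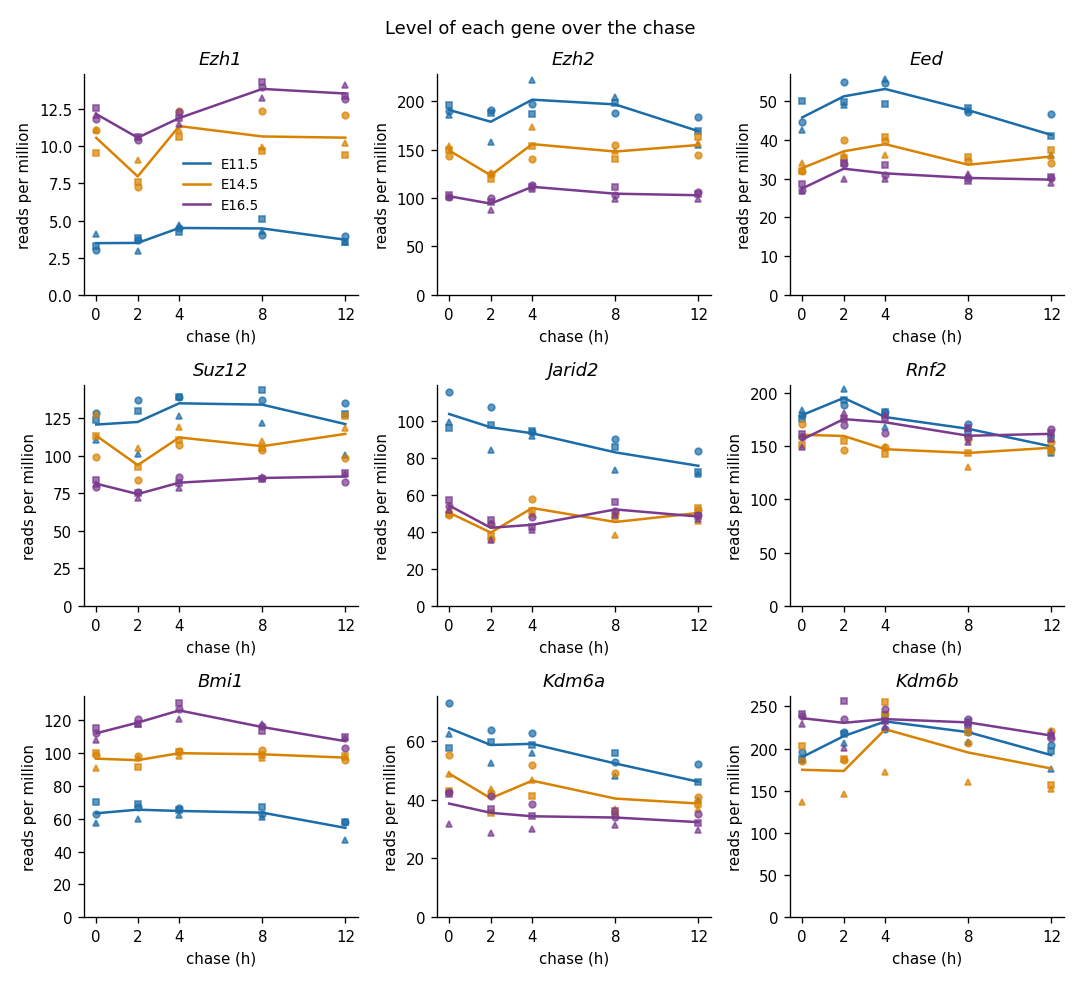
Level of each gene in cpm (vertical axes, from 0) over chase time in hours (horizontal axis), with 1 colour per stage. Points are wells of pools A (circles), B (squares) and C (triangles) and lines join the means of 3. Jarid2 and Kdm6a drifted down over the chase at E11.5, while the order of the stage means stayed as at 0 h for all genes but Jarid2 and Rnf2.

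The share of T positions read as C at 0 h, after 20 h of labelling, was then compared. The half-lives given below were short against 20 h, so this rate was not taken as the share of each RNA newly made. At E11.5 the 9 genes had mean rates of 1.08% (Kdm6b) to 1.31% (Rnf2), at E14.5 of 1.02% (Ezh1) to 1.26% (Eed), and at E16.5 of 1.68% (Ezh2) to 2.01% (Rnf2). All E16.5 pools had higher rates than all E14.5 pools for each of the 9 genes, as for 83.9% of 12522 genes, and the rate over all covered Ts of a library rose as well, from 1.02 to 1.18% in the E14.5 pools to 1.80 to 1.91%. Relative to the median gene of each library, none of the 9 differed between stages by limma, where 17.3% of 12522 genes passed, and Ezh2 (0.0342) and Bmi1 (0.0303) had an unadjusted p under 0.05, as did 32.6% of genes. Without that centring all 9 passed, as did 81.7% of genes. Bmi1 was at −0.14, −0.27 and 0.02 on the log2 scale relative to the median gene in the E11.5 pools, −0.04, −0.10 and −0.04 in the E14.5 pools, and 0.13, 0.09 and 0.12 in the E16.5 pools, above all earlier ones. Ezh2 went the other way, with 0.07, −0.01 and 0.08, then 0.13, −0.03 and 0.08, then −0.13, −0.19 and −0.06, the last below all earlier pools. The share of all genes whose centred rates lie apart in this way is not given here, so these positions are description only.

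Label was lost quickly from most of these RNAs. After 4 h of chase the rate of Kdm6a stood at 29.6% ± 3.13, 29.9% ± 2.0 and 19.8% ± 3.23 of its 0 h rate (SD, n = 3) for the 3 stages in order. The median over 11833 genes was 47.1%, 47.5% and 39.7%. Jarid2 was at 30.2% ± 2.45, 30.0% ± 1.24 and 20.9% ± 3.77, close to Kdm6a. Bmi1 kept more, at 56.8% ± 7.61, 54.2% ± 6.36 and 41.3% ± 1.32, above the median at each stage. The remaining 6 genes lay between 22.9% and 43.7%, with Ezh1, the least covered gene, at 41.0% ± 9.69 at E11.5. At 12 h the median over all genes was 20.6%, 21.5% and 11.7% for the 3 stages. Bmi1 was then below it, at 18.6%, 17.0% and 8.87%, and Kdm6b above it, at 24.7%, 25.3% and 13.5%.

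**Figure D4:**
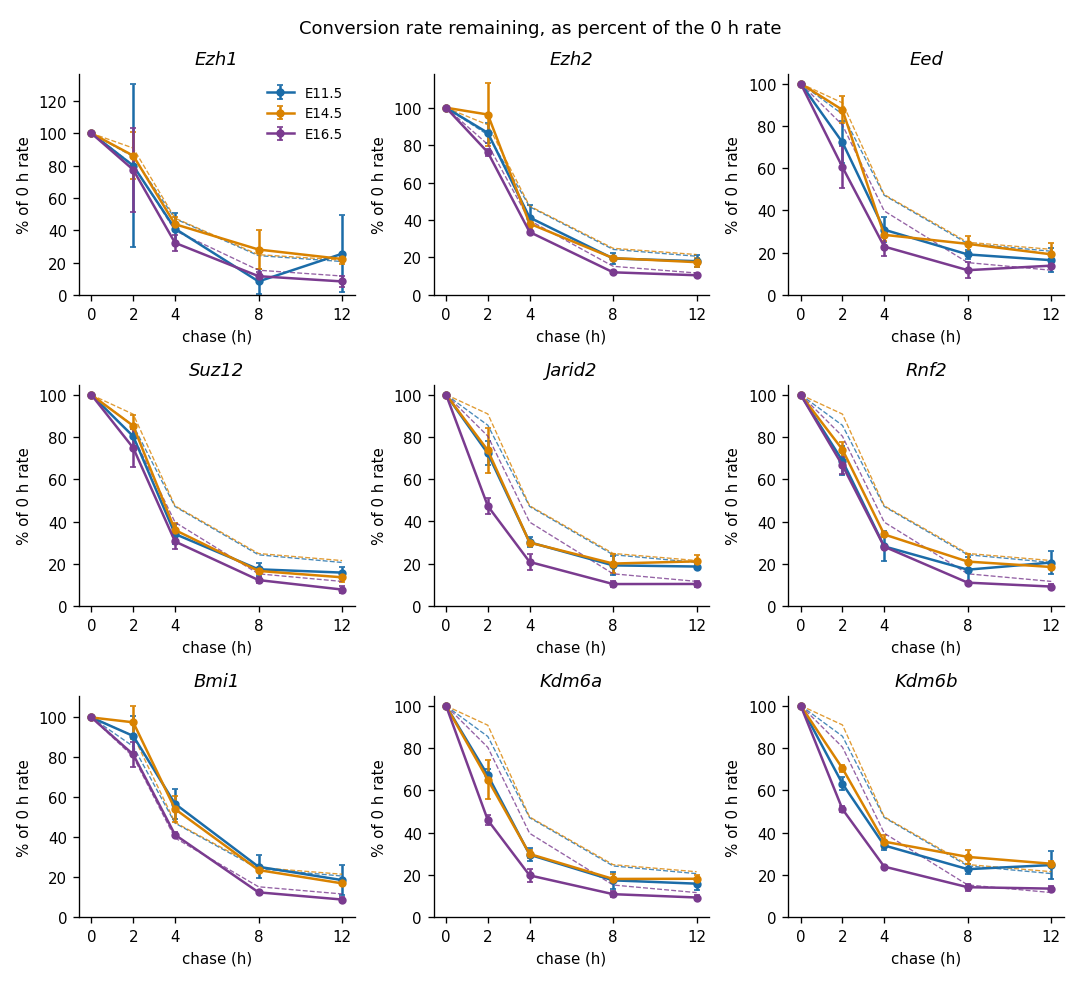
Conversion rate as percent of the 0 h rate (vertical axes, from 0) over chase time in hours for each gene, as mean ± SD of 3 pools per stage. Dashed lines are the medians of 11833 genes. Eed, Suz12, Jarid2, Rnf2, Kdm6a and Kdm6b ran below the dashed line of their stage at 2 and 4 h. Bmi1 ran above it at those times, as at 4 h of E11.5 (56.8% against 47.1%). At 12 h Bmi1 ran below the line and Kdm6b above it at each stage.

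Half-lives were fitted to these rates and were measured at all stages for 8 of the 9 genes, among 9505 transcripts. Ezh1 was not measured at E11.5, where its 3 fits gave 2.70, 2.10 and 7.28 h and the lowest R2 was 0.476. Its half-lives were 4.80, 4.09 and 5.00 h in the E14.5 pools and 2.34, 2.96 and 3.76 h in the E16.5 pools, which did not overlap.

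Kdm6a had the shortest mean at all 3 stages, with 2.91, 3.31 and 2.71 h in the E11.5 pools, then 3.19, 2.97 and 2.77 h, then 1.85, 1.99 and 1.71 h. Between 4.17% and 17.5% of all transcripts were shorter. Its 3′ UTR is the one shown above with the miR-137-3p match. In the E11.5 pools it overlapped Eed, Suz12, Jarid2, Rnf2 and Kdm6b, in the E14.5 pools Jarid2, and in the E16.5 pools Eed and Jarid2. Jarid2 was nearest there, at 2.06, 1.99 and 1.70 h.

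Bmi1 had the longest mean, with 5.08, 6.12 and 4.00 h in the E11.5 pools, then 4.45, 5.24 and 5.13 h, then 3.39, 3.57 and 3.44 h. It was the only one of the 8 whose mean was above the median of all transcripts, which was 4.36, 4.56 and 3.38 h. Against the median of its own pool it was below in pool C of E16.5 only, at 3.44 against 3.45 h. Its pools overlapped those of Ezh2 at E11.5 and E14.5, and those of Ezh1 at E14.5 and E16.5.

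Ezh2, with the let-7a-5p match and both miR-101a-3p matches, had 4.17, 4.44 and 3.55 h, then 3.81, 4.71 and 3.95 h, then 3.12, 3.10 and 3.10 h, and 30.0% to 57.4% of transcripts were shorter. Eed, with a miR-101a-3p match, had 2.64, 3.78 and 3.28 h, then 3.65, 3.67 and 4.04 h, then 2.52, 1.94 and 2.69 h. Suz12, without a match to any of the 4 seeds, had means of 3.50, 3.62 and 2.95 h over the 3 stages, and Rnf2, also without one, 3.08, 3.50 and 2.65 h. Whether a match has a part in any of these half-lives was not tested.

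In hours, the mean half-life of each of the 8 genes fell over the second interval, as it did for 94.1% of transcripts. In 7 of the 8, all but Suz12, the pools did not overlap, as for 69.5% of transcripts. The hours are thus given here as a description and not as a difference of the 8 genes from other transcripts.

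**Figure D5:**
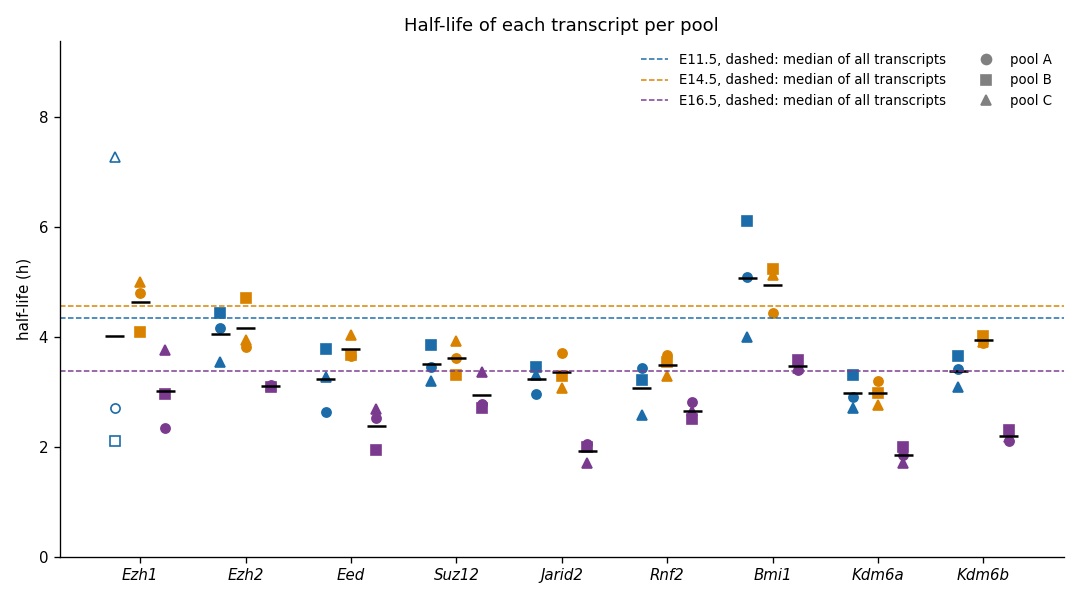
Half-life in hours (vertical axis, from 0) of each gene in pools A (circles), B (squares) and C (triangles) at the 3 stages (colours), with black lines for means and dashed lines for the median of all transcripts. Open symbols are fits of Ezh1 that did not pass. Kdm6a had the shortest mean at each stage, and the means of Bmi1, 5.07, 4.94 and 3.47 h, lay above the dashed lines.

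In hours without scaling, Jarid2, Kdm6a and Kdm6b passed, where 24.2% of transcripts did. The planned test scaled half-lives to the other transcripts of each pool (z-scores), and the paper also used z-scores. None of the 8 passed across the stages in limma's F-test, where 3.15% of transcripts passed, and only Kdm6b had an unadjusted p under 0.05 (0.00565, adjusted p = 0.0854), as did 21.7% of transcripts. Its half-lives were 3.42, 3.65 and 3.09 h in the E11.5 pools, then 3.89, 4.01 and 3.91 h, then 2.11, 2.30 and 2.17 h. Its z-scores were −0.66, −0.68 and −0.63, then −0.44, −0.39 and −0.55, then −0.92, −0.83 and −0.93, without overlap between stages. Over the second interval, in which its level rose, the difference was −0.44 ± 0.0951 (adjusted p = 0.079). Scaled as log2 hours relative to the median of the pool, Kdm6b passed (adjusted p = 0.0431, where 4.4% of transcripts did), and it also passed among fits with R2 over 0.8 (0.0419, where 8.6% did). Jarid2, with z-scores of −1.21 to −0.96 at E16.5, was lower there than in all earlier pools (adjusted p = 0.293). Kdm6a, at −1.21 to −1.00, overlapped the E14.5 pools (adjusted p = 0.361). The share of all transcripts whose z-scores do not overlap between stages is not given here.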

How the data were processed

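SLAM-seq libraries of cultured mouse cortical cells were analysed from the tables the authors deposited, 1 for each of 9 pools. Reads had been processed by the authors with SlamDunk on mm10 and GENCODE exons. Covered Ts were deposited as raw counts per gene, so that a read enters once for every T it spans. Expression was deposited in cpm, from which whole reads were recovered (100.0% of values, within 0.01 reads), and the conversion rate as a fraction, printed here as a percent. Half-lives deposited by the authors served only to check the refit, which was within 1% for 99.9964% of 109733 fits. The 9 genes and all lists were chosen with earlier results of these data known, and other genes were named as the 2 largest passing rises and falls of each list and successive pair of stages.

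Levels were compared with edgeR 4.0.16 (quasi-likelihood, TMM, a covered-T count of more than 10 in all libraries) in R 4.3.3. Half-lives and label content were compared with limma 3.58.1. Benjamini-Hochberg adjustment was made over all genes, with a threshold of 0.05. The fit exp(-kx) was made to rates scaled to 0 h, for more than 500 covered Ts, a half-life under 24 h and R2 over 0.6 in all pools. Scripts were tested on simulated data. Alternatives were recovered reads, DESeq2 1.42.0, other normalization, filters and scales, 12 h libraries, a block and each pool left out. The block was the pool for the chase, and the letter A, B or C across stages for other fits. The setting without 3 pools of one sex and that without Gm42418, Lars2 and Gm26917 were added after seeing the data. Wells of a pool share embryos, and their deviations from group means correlated with a median r of 0.44, 0.69 and 0.64 for the 3 stages in order (lowest −0.07). Letters shared between stages mark other embryos (−0.20 to 0.20 at 0 h). No 2 libraries of a group were alike within sampling noise (chi-square per degree of freedom at least 2.06). Gene positions and 3′ UTRs came from GENCODE vM21 on GRCm38, which named 96.6% of the genes, and miRNAs from RefSeq, which held 4 of the 5 sought; miR-124-3p was not used here. No unlabelled library was used, so part of each rate can be background conversion.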

Additional observations from a re-analysis of the deposited data

How the results depend on the processing

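Of the calls for single genes, 352 values under alternatives kept their direction and their side of the threshold and 43 no longer passed. Of values that had not passed, 804 did not pass and 34 passed. No called value changed direction. The counts of the 9 genes passing between stages at 0 h stayed within 1.5 times under the alternatives run, except that without the 3 pools of one sex 3 passed from E14.5 to E16.5 in place of 5. Leaving out 1 pool gave 0 to 3 passing for 12 h of chase at E11.5, 0 to 1 at E16.5 and 0 to 0 for 2 h at E16.5. It gave 0 to 1 for label content, where 1 passed without pool C of E11.5. With the replicate block (the pool), 1 gene passed at 12 h and 3 at 2 h of E14.5, in place of 0. The 12 h count at E16.5 was 0 with recovered reads and 0 with no filter on low counts. For half-lives, 3 of 8 passed in hours without scaling (Jarid2, Kdm6a and Kdm6b, where 24.2% of transcripts passed), 1 on the log2 scale and 1 with R2 over 0.8, a setting under which Ezh2 was not measured. Label content without centring had 9 of 9 passing, where 81.7% of genes passed. In the 12 h libraries the log2 ratio of Ezh2 to Ezh1 differed by −1.63 from E11.5 to E14.5 and by −0.95 from E14.5 to E16.5, against −1.97 and −0.76 at 0 h, and that of Kdm6a to Kdm6b by −0.67 from E11.5 to E16.5, against −1.05. Over all transcripts, 299 passed for half-lives, against 2296 in hours, 547 with R2 over 0.8, 195 with a linear fit and 3 to 265 without single pools. With the letter A, B or C as a block across stages it was 0 (1861 at an unadjusted p under 0.05). Those letters mark other embryos at each stage, so that block does not account for pools. For label content 2169 genes passed, and 10226 without centring. At 2 h of E14.5 it was 248 genes, 1381 with the pool as a block and 732 with DESeq2. At 2 h of E16.5 it was 1045, 2638 and 1731 in the same order. At 12 h the counts were 4122, 2702 and 4724 by stage, and 1443 to 3974, 750 to 1735 and 2577 to 2900 without single pools. The cause of these shifts was not tested. With 3 pools a stage, exact tests of a single value could not go below 0.1. Ezh1, with 892 to 1366 covered Ts in the 0 h libraries of E11.5, passed the coverage minimum there but not that on R2 (lowest 0.476).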
